A study of Bos taurus with 6 samples.

Results

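Nucleoside and organic cation transporters are membrane proteins that carry nucleosides, monoamines, carnitine and related charged molecules across cell membranes. The genes described here are SLC29A1, SLC29A2, SLC29A3, SLC29A4, SLC28A3, SLC22A3, SLC22A4 and SLC22A5, which make up 8 of the 32183 gene entries in the expression tables. They were chosen by gene symbol, and the set was proposed because SLC29A4 stood apart from its own family in the butyrate comparison described here. The values of the 8 genes in that comparison are therefore given as a description and carry no p-values. How many of them were called by the fit across all genes is stated beside the share of all genes called. Those counts under other settings are given near the end, and nothing is read from either. Each symbol matched 1 entry.

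RNA was sequenced from rumen epithelial primary cells (REPC), cultured from the rumen wall of 1 male Holstein calf. At an age of 2 weeks the animal was still on a liquid diet of milk replacer. The 3 butyrate cultures received 5 mM butyrate for 24 h, and the 3 control cultures did not. Butyrate is a short-chain fatty acid made by rumen microbes and an inhibitor of histone deacetylases, and the comparison asks which genes change their expression when it is added. All cultures came from the same calf, so every error and test below measures the spread between cultures of 1 animal and not the spread between animals. The values are FPKM, sequenced fragments scaled by transcript length and by the number of mapped fragments, and can be compared between genes because they are scaled by length.

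Equilibrative nucleoside transporters of the SLC29 family let nucleosides run down their concentration gradient, and cells use them to salvage nucleosides and to clear adenosine from the extracellular space. Concentrative transporters of the SLC28 family use the sodium gradient to take up nucleosides against theirs. The SLC22 transporters of this set carry organic cations and zwitterions. The SLC29 family member SLC29A4 overlaps with them in substrates because it moves monoamines such as serotonin and dopamine. In the rumen wall such transporters stand between the products of microbial nucleic acid breakdown and the blood.

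The gene that differed most was SLC29A4, the plasma membrane monoamine transporter. Its FPKM was 0.204, 0 and 0 in control cultures 1, 2 and 3, and 15.4, 15.7 and 18.5 in butyrate cultures 1, 2 and 3. All butyrate cultures were above all control cultures, and control culture 1 was the only control with a value above 0. The means were 0.0681 ± 0.118 (SD, n = 3) in control and 16.5 ± 1.71 (SD, n = 3) after butyrate. On the log2(FPKM + 0.1) scale the difference was 6.84 (SE 0.42), the rank 3 of 15813 genes tested when ordered from the largest rise. The gene lies on chromosome 25 from 39514827 to 39538548 (gene28320; all positions are those of the deposited tables, for which the processing notes name build UMD3.1).

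Because SLC29A4 was at or near 0 in control cultures, the size of its fold change depends on the constant that is added before the logarithm, while the deposited confidence bounds do not. The upper bound in control culture 1 was 0.721 FPKM, and the lowest lower bound of any butyrate culture was 12.7 FPKM, which is 17.7 times as high. If those bounds reflected counting error alone, the value of control culture 1 would rest on about 0.625 of a fragment and those of the butyrate cultures on 133, 171 and 144 fragments. The bounds of control cultures 2 and 3 were listed as 0 and give no limit.

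SLC29A1 encodes ENT1, the widely expressed equilibrative nucleoside transporter of the plasma membrane, and was the most abundant gene of the set in every culture. Its FPKM was 88.5, 85.5 and 92.4 in control and 64.5, 65.8 and 68.3 after butyrate. All butyrate cultures were below all controls, and the confidence bounds of the groups did not meet, with 79.1 to 99.2 in control and 59.3 to 73.7 after butyrate. The mean went from 88.8 ± 3.47 to 66.2 ± 1.96 (SD, n = 3 each), a log2 difference of -0.42 (SE 0.05). SLC29A1 lies on chromosome 23 from 17845969 to 17856159 (gene26099).

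SLC29A2 encodes ENT2, which carries nucleosides and also nucleobases, and its level went the other way. Its FPKM was 2.48, 3.41 and 3.72 in control and 4.4, 7.55 and 6.94 after butyrate. The groups did not overlap, but the lowest butyrate culture and the highest control culture were close. The means were 3.2 ± 0.647 and 6.3 ± 1.67 (SD, n = 3 each), with a log2 difference of 0.94 (SE 0.23), and the confidence bounds of the groups overlapped. Without butyrate replicate 2 the difference was 0.79 (SE 0.27), and the call described below was then lost. SLC29A2 lies on chromosome 29 from 45055716 to 45063839 (gene30483).

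SLC29A3 encodes ENT3, a nucleoside transporter of intracellular membranes including lysosomes. Its FPKM was 9.2, 7.69 and 6.72 in control and 7.25, 8.4 and 9.61 after butyrate, so the groups overlapped. The means were 7.87 ± 1.25 and 8.42 ± 1.18 (SD, n = 3 each), and the log2 difference was 0.10 (SE 0.15), smaller than its standard error. SLC29A3 lies on chromosome 28 from 27679909 to 27685852 (gene29571).

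**Figure D1:**
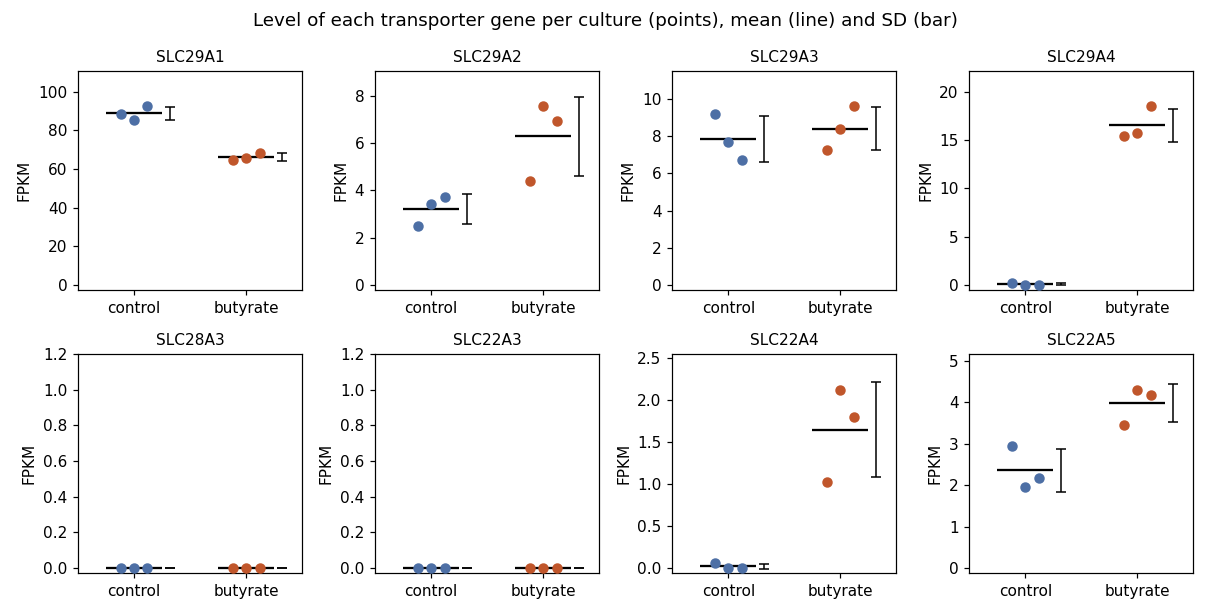
FPKM (vertical axis, a separate linear scale for each gene) of the 8 transporter genes in 3 control and 3 butyrate cultures, with points for cultures, a line for the mean and a bar for the SD. SLC29A4 and SLC22A4 sit near 0 in control and well above it after butyrate, SLC29A1 is lower after butyrate, SLC29A3 overlaps, and SLC28A3 and SLC22A3 lie at 0 throughout.

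The other genes of the set belong to the SLC28 and SLC22 families. SLC28A3 encodes CNT3, a sodium-coupled nucleoside transporter of broad specificity, and SLC22A3 encodes OCT3, an organic cation transporter that shares monoamine substrates with SLC29A4. Both were listed at 0 FPKM in all 6 cultures and were not tested. SLC28A3 lies on chromosome 8 from 78871655 to 78947509 (gene10724), and SLC22A3 lies on chromosome 9 from 97917319 to 98016378 (gene11804). The monoamine transporter SLC29A4 was thus detected after butyrate in cultures in which SLC22A3 was listed at 0.

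SLC22A4 encodes OCTN1, a transporter of the antioxidant ergothioneine, and was listed at or near 0 in control cultures in the same way as SLC29A4. Its FPKM was 0.0565, 0 and 0 in control and 1.02, 2.12 and 1.8 after butyrate. Again control culture 1 alone was above 0 and all butyrate cultures were above it. The means were 0.0188 ± 0.0326 and 1.64 ± 0.567 (SD, n = 3 each), with a log2 difference of 3.85 (SE 0.39), rank 188 of the 15813 genes tested. The lowest butyrate bound, 0.509 FPKM, was 2.34 times the highest control bound of 0.217 FPKM, a narrower gap than that of SLC29A4. If the bounds reflected counting error alone, the value of control culture 1 would rest on about 0.494 of a fragment. Those of the butyrate cultures would rest on 16.1, 35.1 and 29 fragments. SLC22A4 lies on chromosome 7 from 23382632 to 23425462 (gene9001).

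SLC22A5 encodes OCTN2, the sodium-coupled carnitine transporter, and lies 27.1 kb from SLC22A4 on the same chromosome, from 23329256 to 23355525 (gene9000). Its FPKM was 2.95, 1.96 and 2.16 in control and 3.46, 4.3 and 4.18 after butyrate. The groups did not overlap, although their confidence bounds did. The means were 2.36 ± 0.525 and 3.98 ± 0.451 (SD, n = 3 each), a log2 difference of 0.75 (SE 0.19). These neighbouring genes therefore differed in level in the control cultures, with SLC22A5 well above 0 in every control and SLC22A4 listed at or near 0.

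In counts, the test across all genes took those averaging 0.1 FPKM or more over the 6 cultures, which 6 of the 8 transporter genes did. SLC29A2, SLC29A4, SLC22A4 and SLC22A5 were higher and SLC29A1 was lower at a Benjamini-Hochberg adjusted p under 0.05 (limma), so 5 of the 6 were called, where 58.4% of all tested genes were called, 32.5% as higher and 25.9% as lower. The same 5 genes had groups that did not overlap, as did 65.0% of all tested genes. A stricter rule from the study's methods asks for a Bonferroni-corrected p under 0.05 together with a log2 difference larger than 2. SLC29A4 was the 1 gene of the set called by it, where 3.97% of all tested genes were called, 2.46% as higher. The median log2 difference of the 6 genes was 0.84, beside 0.10 over all tested genes. SLC29A4, for which the set was proposed, and SLC22A4 were tested only through their butyrate values, so nothing is read from this median.

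**Figure D2:**
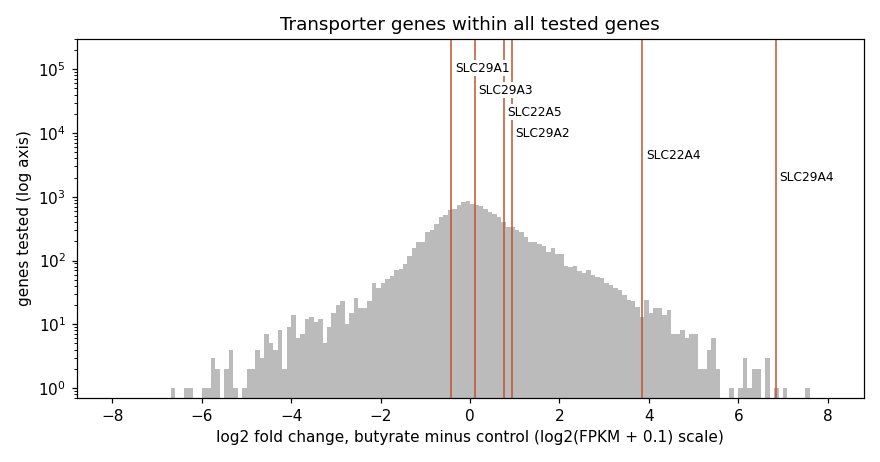
Histogram of the log2 fold change (horizontal axis, butyrate minus control) of all 15813 genes tested, with the number of genes on a log axis and a vertical line for each of the 6 tested transporters. SLC29A4, at 6.84, lies at the far right end, SLC22A4, at 3.85, lies in the right tail, and the others lie between -0.42 and 0.94.

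The order of the levels changed with treatment. In control cultures SLC29A1 was highest, followed by SLC29A3, and the lowest SLC29A3 value (6.72 FPKM) was above the highest SLC29A2 value (3.72). SLC29A2 and SLC22A5 came next and overlapped, and SLC29A4 and SLC22A4 overlapped at or near 0. After butyrate SLC29A4 held the second place, with its lowest value of 15.4 above the highest SLC29A3 value of 9.61. SLC29A3 and SLC29A2 then overlapped, and SLC22A5 and SLC22A4 followed. In control cultures 5.65% of the tested genes lay below the mean level of SLC29A4, and after butyrate 69.5% did. Only genes averaging 0.1 FPKM or more over the 6 cultures were tested. SLC29A4, with a control mean of 0.0681 FPKM, and other genes near 0 in control are among them only through their butyrate values. Its low place in control is therefore partly set by that filter, and both shares are a description. For SLC29A1 this share was 91.3% in control and 89.4% after butyrate, so it stayed among the more abundant transcripts.

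In FPKM as deposited, the summed level of the SLC29 family differed by less than the spread between cultures. All genes together summed to less FPKM after butyrate, as given below, and the family sum was not compared with cultures rescaled to the same sum. The sum was 100, 96.6 and 103 FPKM in control and 91.5, 97.5 and 103 FPKM after butyrate, and the groups overlapped. The make-up of the sum differed between the groups, and the shares within it do not depend on such rescaling. SLC29A4 made up 0.203%, 0% and 0% of it in control and 16.8%, 16.1% and 17.9% after butyrate. SLC29A1 made up 88.2%, 88.5% and 89.8% in control and 70.4%, 67.5% and 66.1% after butyrate. The share of SLC29A2 was 3.21% ± 0.64 in control and 6.42% ± 1.49 after butyrate, and that of SLC29A3 was 7.89% ± 1.32 and 8.61% ± 0.689 (SD, n = 3 each). SLC22A4 made up 28.6% ± 5.32 (SD, n = 3) of the summed FPKM of SLC22A3, SLC22A4 and SLC22A5 after butyrate. These shares describe transcripts, and neither protein nor transport was measured.

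**Figure D3:**
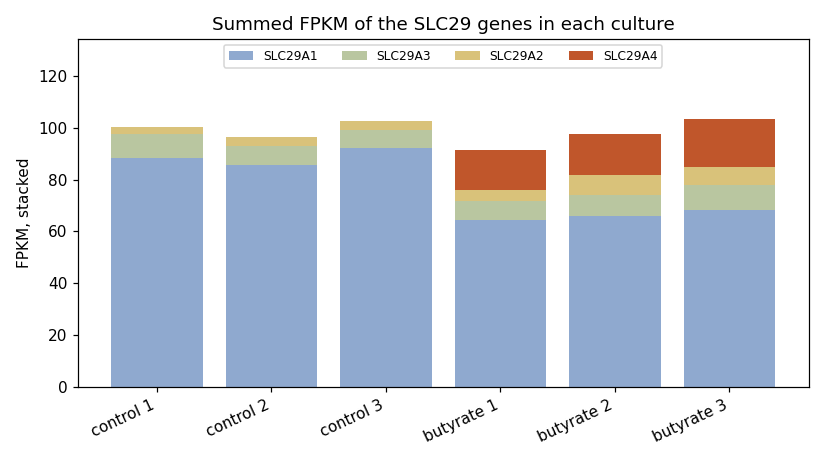
Stacked FPKM of the 4 SLC29 genes (vertical axis, from 0) in each of the 6 cultures. The bars reach similar heights, from 91.5 to 103 FPKM, and the SLC29A4 segment is visible in the 3 butyrate cultures only.

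The cell type label was checked against marker genes. All 10 epithelial markers were detected, among them the keratins KRT8 (1310 to 1420 FPKM in control), KRT7 and KRT19, while EPCAM was low (0.406 to 0.737 FPKM in control). The mesenchymal genes VIM (2410 to 2530 FPKM in control) and COL1A1 (1110 to 1170) were also abundant. CDH5 and PTPRC, defining markers of endothelial cells and leukocytes, were listed at 0 in every culture. Other genes of those lists were detected, namely PECAM1, which had 1.32 to 1.7 FPKM in control and rose to 3.04 to 4.88 (log2 difference 1.28, limma adjusted p = 0.00082), and CD14, which had 4.45 to 6.65 and 5.97 to 8.16 FPKM and was not called. Marker levels moved with treatment. The summed FPKM of the 10 epithelial markers was 3320 to 3470 in control and 6690 to 6720 after butyrate, with 8 higher, KRT5 lower by 0.17 on the log2 scale but 0.06 higher under quantile normalization, and CDH1 not called. The sum of the 9 fibroblast markers was 4350 to 4520 and 6370 to 6710, with the 8 tested all higher, and that of the 3 muscle markers was 2640 to 2820 and 840 to 1150, nearly all of it ACTA2. The sum of the 3 endothelial markers was 1.32 to 1.7 and 3.05 to 4.89, and that of the 3 leukocyte markers was 4.45 to 6.65 and 5.97 to 8.34. The part of these markers in the transporters' values was not tested, and in bulk RNA a change in the number of cells of a type and a change of RNA per cell cannot be told apart. The values of each table summed to 678035 to 681912 FPKM in control and 619401 to 629037 after butyrate, and with all cultures rescaled to the same sum the log2 difference was 7.38 for SLC29A4, 4.42 for SLC22A4 and -0.30 for SLC29A1.

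SLC29A1 and SLC29A2 pass nucleosides to and from the enzymes that make and break them, so 36 of these enzymes were listed. Of the 28 tested, 11 rose (39.3%), 11 fell (39.3%) and 6 were not called (limma, Benjamini-Hochberg), beside 32.5% and 25.9% of all tested genes, with a median log2 difference of -0.02 beside 0.10 over all tested genes. The largest rises were in ENTPD3, ENTPD2, NT5E and ADA. ENTPD2, an ectonucleotidase that hydrolyses ATP, had 5.32, 6.54 and 2.83 FPKM in control and 32.1, 35.8 and 35.8 after butyrate (log2 difference 2.87, SE 0.26, limma adjusted p = 2.2e-05). ENTPD3, a related enzyme, rose by 3.23 (SE 0.31, adjusted p = 3.3e-05) from a control mean of 0.304 FPKM. NT5E, which converts extracellular AMP to adenosine, had 5.8, 4.44 and 5.81 FPKM in control and 16.6, 17.3 and 16 after butyrate (1.63, SE 0.12, adjusted p = 7.4e-06). ADA, which deaminates adenosine to inosine, rose by 1.63 as well (SE 0.07, adjusted p = 4e-07).

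The largest falls were in TK1, UCK2, ENTPD5 and DCK. Nucleoside kinases trap salvaged nucleosides in the cell by adding a phosphate. TK1, the thymidine kinase of dividing cells, had 50, 55.7 and 49 FPKM in control and 13.4, 16.7 and 13.1 after butyrate (log2 difference -1.84, SE 0.10, limma adjusted p = 1.5e-06). UCK2, a uridine and cytidine kinase, differed by -1.43 (SE 0.08, adjusted p = 1.8e-06) and DCK, deoxycytidine kinase, by -1.17 (SE 0.13, adjusted p = 8.2e-05). ENTPD5, a nucleotidase of the endoplasmic reticulum, differed by -1.24 (SE 0.14, adjusted p = 8.3e-05). The other nucleoside kinases of the list, which were singled out after their values were seen, went both ways. ADK and UCK1 differed by -0.42 and -0.44 and were called as lower, the mitochondrial kinases TK2 and DGUOK rose by 0.51 and 0.30, and UCKL1 was not called (-0.05).

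Of the 4 adenosine receptors, which sense the adenosine that SLC29 transporters clear, 3 were tested. ADORA2A had 0.488, 0 and 0 FPKM in control and 9.67, 11.4 and 9.06 after butyrate (log2 difference 5.81, SE 0.62, limma adjusted p = 6.4e-05). Like SLC29A4, it was above 0 only in control culture 1 among the controls. ADORA1 rose by 2.81 (SE 0.51, adjusted p = 0.0014) from 0.144 to 1.36 FPKM on average. ADORA2B was the most abundant receptor in both groups, with 30.9, 35.2 and 39.6 FPKM in control and 26.1, 26.9 and 29 after butyrate. Its log2 difference was -0.36 (SE 0.10, adjusted p = 0.011). The call, though not the direction, was lost with each culture rescaled to the same sum (-0.24). The same held without butyrate replicate 1 or butyrate replicate 2 (-0.32 and -0.35). ADORA3 was listed at 0.

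Of 16 genes that make, pack, carry or break down monoamines, the substrates of SLC29A4, 7 were tested, and 5 rose (71.4%), 1 fell (14.3%) and 1 was not called (limma), beside 32.5% and 25.9% of all tested genes. The breakdown enzymes MAOA and MAOB were at or near 0 in every culture. Of the synthesis genes, DDC, DBH, PNMT, TPH1 and HDC were also at or near 0, with no value above 0.196 FPKM, and were not tested. SLC6A3 and SLC6A2, with control means of 0.0256 and 0.0559 FPKM, reached the level needed for testing only through their butyrate values. SLC6A3, the dopamine transporter, had 0.0768, 0 and 0 FPKM in control and 1.13, 2.6 and 1.22 after butyrate (log2 difference 3.76, SE 0.43, adjusted p = 9.8e-05). SLC18A2, which loads monoamines into vesicles, rose by 1.55 (SE 0.35, adjusted p = 0.0048) and TH, tyrosine hydroxylase, by 1.42 (SE 0.28, adjusted p = 0.0023), both from a control mean under 1 FPKM. TPH2, a tryptophan hydroxylase, rose by 1.41 (SE 0.50, adjusted p = 0.038), a call lost in 7 alternatives. HNMT, which methylates histamine, fell by 1.37 on the log2 scale (SE 0.34, adjusted p = 0.0077). These levels are low beside the 16.5 FPKM of SLC29A4.

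**Figure D4:**
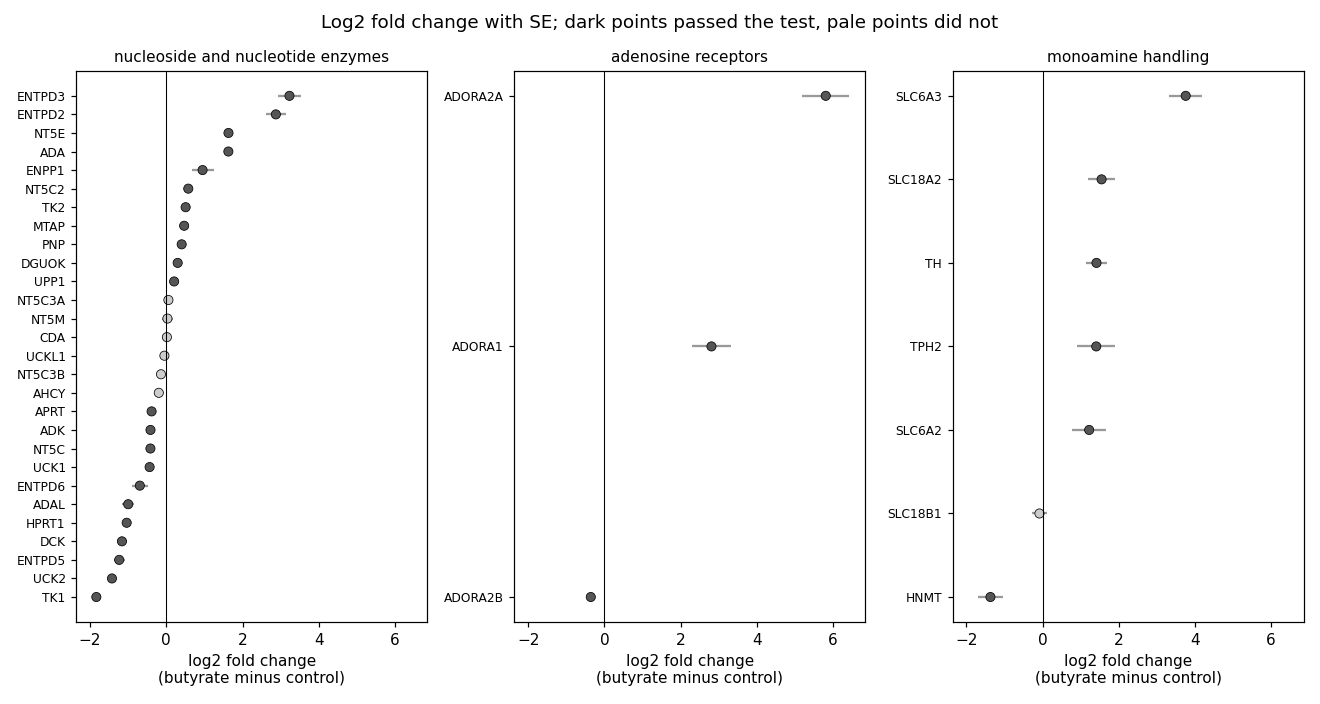
Log2 fold change (horizontal axis, butyrate minus control) with its SE for the tested nucleoside and nucleotide enzymes, adenosine receptors and monoamine handling genes, where dark points passed the test and pale points did not. The enzymes spread to both sides, from -1.84 for TK1 to 3.23 for ENTPD3, and ADORA2A lies farthest right at 5.81.

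SLC22A5 imports carnitine, so 18 genes that make carnitine, move it, transfer acyl groups to it or activate the fatty acids were listed, and 15 were tested. Of these 8 rose (53.3%), 3 fell (20%) and 4 were not called, beside 32.5% and 25.9% of all tested genes, and the median log2 difference was 0.19 beside 0.10. ACSL6, CPT1C, CPT1B and ACSL3 rose by 1.41 to 1.90 (limma adjusted p from 1.6e-07 to 0.0053), the call of CPT1B being lost under quantile normalization (0.97). ACSL3, which activates long-chain fatty acids, was the most abundant of them and went from 51 ± 2.25 to 135 ± 3.6 FPKM (SD, n = 3 each). TMLHE, the first enzyme of carnitine synthesis, differed by -1.52 (SE 0.29, adjusted p = 0.0019) and CRAT, carnitine acetyltransferase, by -0.98 (SE 0.08, adjusted p = 9e-06). ACSL4 differed by -0.33 (adjusted p = 0.012), a call lost when cultures were rescaled to the same sum. CPT1A, which starts mitochondrial import of fatty acids, had 14.2 ± 0.726 and 15.3 ± 1.58 FPKM and was not called, nor was the carnitine carrier SLC25A20 (12.9 ± 1.92 and 11.7 ± 1.24 FPKM).

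The remaining members of the SLC28 and SLC22 families, together with SLC47A1 and SLC47A2, were mostly silent. Of 22 such genes in the tables, 6 were tested and 9 were listed at 0 in every culture. SLC22A17, a receptor-like member that binds lipocalin, was the most abundant of them, with 35.6, 37.1 and 36.2 FPKM in control and 101, 101 and 99.2 after butyrate (log2 difference 1.47, SE 0.05, limma adjusted p = 9.6e-08). SLC22A31 rose by 1.92 (SE 0.31, adjusted p = 0.00081) and SLC22A18 by 0.76 (SE 0.14, adjusted p = 0.0018), and SLC22A15, SLC22A20 and SLC22A23 were not called. SLC28A1 and SLC28A2, the other concentrative nucleoside transporters, were at 0 in all controls and reached at most 0.24 FPKM after butyrate. Among the SLC29 and SLC28 genes, therefore, those of the equilibrative family carried nearly all of the measured transcript in both groups. Of 237 tested genes with other SLC names, 41.8% rose and 15.6% fell, beside 32.5% and 25.9% of all tested genes.

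The nearest tested genes on either side were examined to see whether the surroundings of the transporters moved too. Around SLC29A4, the closest tested gene, TNRC18, lies 2.94 kb away and had 1.13, 1.64 and 1.87 FPKM in control and 1.67, 2.02 and 1.48 after butyrate (log2 difference 0.17, SE 0.24, limma adjusted p = 0.57). WIPI2, an autophagy gene 24.1 kb to the other side, had 57.4 ± 2.15 and 62 ± 2.22 FPKM (SD, n = 3 each) and was not called (0.11, adjusted p = 0.11), although it was with cultures rescaled to the same sum (0.24) or quantile normalized (0.19). Farther out RADIL, at 145 kb, rose by 2.72 (SE 0.27, adjusted p = 4e-05) from 0.193 to 1.81 FPKM. PAPOLB, inside the RADIL interval, rose by 0.64 (adjusted p = 0.039, lost in 8 alternatives), and because these genes overlap their reads may be hard to separate. ACTB and FBXL18 both differed by -0.39 (adjusted p = 0.00045 and 0.049), the former at 0.0 under quantile normalization and the latter a call lost in 8 alternatives. The median of these 6 neighbours was 0.14 and the largest difference among them was the 2.72 of RADIL, beside 6.84 for SLC29A4.

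Around SLC22A4 and SLC22A5, 5 of the 6 nearest tested genes rose and 1 fell (limma), with a median log2 difference of 1.04, where 32.5% of all tested genes rose and 25.9% fell. PDLIM4, 18.1 kb from SLC22A4, went from 58.6 ± 6.5 to 166 ± 5.5 FPKM (SD, n = 3 each; 1.51, SE 0.08, adjusted p = 8.5e-07). P4HA2, at 16.8 kb, rose by 0.82 (SE 0.05, adjusted p = 1.5e-06), and its interval contains that of PDLIM4, so their reads may be hard to separate. The others lie farther from SLC22A4. IRF1, at 139 kb, rose by 1.27 (SE 0.13, adjusted p = 5.6e-05). KIF3A, at 320 kb, rose by 0.50 (adjusted p = 0.0001) and ACSL6, at 348 kb, by 1.90. RAD50, a DNA repair gene at 212 kb, fell by 0.57 on the log2 scale (adjusted p = 0.0014). Over the 42 neighbours of all 8 genes, each counted once, 21 rose (50%), 12 fell (28.6%) and 9 were not called. Of all tested genes 32.5% rose and 25.9% fell.

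**Figure D5:**
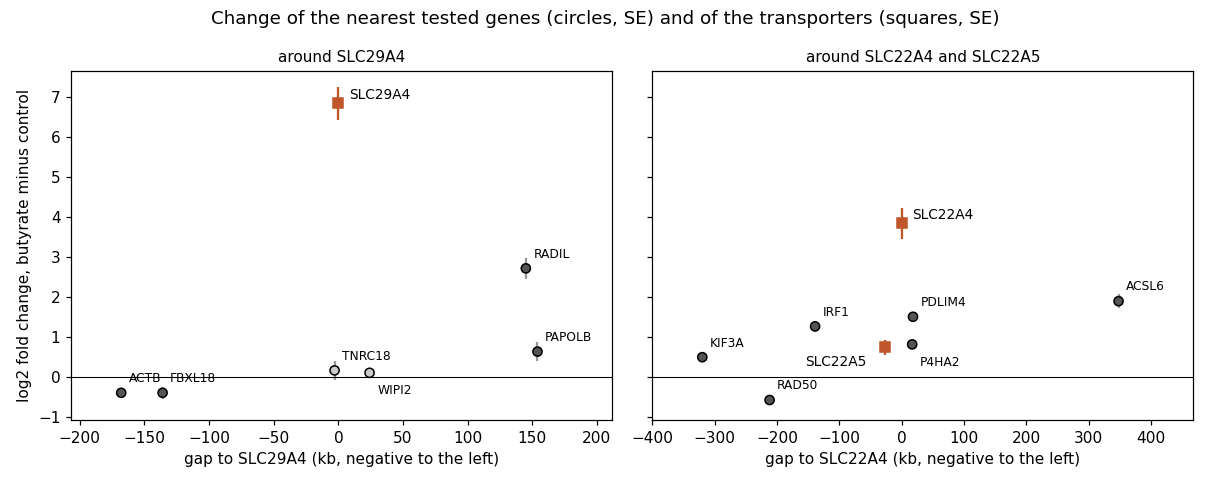
Log2 fold change (vertical axis, butyrate minus control, with SE) of the nearest tested genes, plotted against their gap in kb to SLC29A4 (left) or SLC22A4 (right), where dark circles passed the test, pale circles did not and squares are the transporters. Around SLC29A4 the neighbours lie between -0.39 and 2.72 below its 6.84, and around SLC22A4 most lie above 0.

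The genes whose 6 values lay closest to those of SLC29A4, by Euclidean distance on the log2(FPKM + 0.1) scale, were SUSD2 (distance 1.15), CLSTN3 (1.26), PRPH (1.48), ADORA2A (1.61) and TNFRSF18 (2.02). SUSD2 had 0.116, 0 and 0 FPKM in control and 10.1, 11 and 11.6 after butyrate. PRPH, which encodes the neuronal intermediate filament peripherin, had 0.509, 0 and 0.107 in control and 16, 17.4 and 15.6 after butyrate. The adenosine receptor ADORA2A is listed on the same values that were given above, so its place here is not a second observation. For SLC22A4 the closest were SLC6A3 (0.64), RNF183 (0.71), PLXDC1 (0.73), NMRK2 (0.74) and NFAM1 (0.74), and the closest of them was the dopamine transporter gene described above. Closeness here reflects the level in both groups as well as the difference between them, and with 6 cultures it is a description.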

How the data were processed

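RNA-seq of 6 REPC cultures (3 control, 3 butyrate) was analysed. The authors trimmed reads with Trim Galore 0.4.1, aligned them with STAR, kept uniquely mapped reads and deposited gene-level FPKM with confidence bounds from Cufflinks. The processing notes name UMD3.1. Chromosomes were assigned from the study's gene tables (1139 of 1142 matched genes lay on the majority chromosome). The tables hold no counts, so the fragments behind each value are not given in them, and FPKM is not a count, so no count test was run.

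Entries were joined by identifier, gene symbol and position together. A failed estimate removed 2 genes. The 15813 genes averaging 0.1 FPKM or more were tested, two-sided, on log2(FPKM + 0.1) in limma 3.58.1 (R 4.3.3), whose prior variance followed the mean level. Fold changes on this scale understate the change of low genes. The script was tested on simulated data.

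The transporters and gene lists were chosen with earlier results of these data known. The text names every transporter, up to 4 higher and 4 lower genes of each list by size of change, up to 3 neighbours a side with a name other than LOC, the 5 genes of closest profile to SLC29A4 and to SLC22A4, and markers. Alternatives were the pseudocount, the filter, the trend, the scaling, a replicate block, each culture left out and the stricter call. SLC22A2 was matched through a synonym in RefSeq's genes of ARS-UCD2.0. 1 gene of the lists is not reported here.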

Additional observations from a re-analysis of the deposited data

How the results depend on the processing

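Of 1140 values of single genes (82 genes, 14 alternatives in most), 1076 kept their direction and their side of the threshold. SLC29A4 stayed positive in every alternative run, at 9.21 with a pseudocount of 0.01, 4.04 with 1 and 6.57 to 7.37 with a culture left out. As a plain ratio of group means, chosen after seeing the data, its log2 value was 7.92, and that of SLC22A4 was 6.45. SLC22A4 was 6.39 with a pseudocount of 0.01 and 1.35 with 1, and had no value at a mean FPKM of at least 1. SLC29A3 turned to -0.01 without control replicate 3 and to -0.0 without butyrate replicate 3 (range -0.01 to 0.21 with a culture left out). TNRC18 turned to -0.22 under quantile normalization and -0.03 without control replicate 1 (range -0.03 to 0.31 with a culture left out), CDH1 to 0.10 rescaled and 0.04 under quantile normalization, and KRT5 to 0.06 under quantile normalization.

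The median log2 difference of all genes was 0.104, 0.225 with each culture rescaled to the same sum and -0.045 after quantile normalization, and the share of calls that were higher was 55.7%, 63.6% and 47.8%. Under the Bonferroni rule 389 genes were higher and 238 lower in place of 5144 and 4091 (limma). As a description only, of the transporters 1 was then higher and 0 lower in place of 4 and 1. With a culture left out 3 to 4 transporters were higher, again as a description, the 3 arising without butyrate replicate 2, where SLC29A2 lost its call. Adenosine receptors gave 1 higher with a mean FPKM of at least 1 and 0 lower when rescaled (limma; 1 at an unadjusted p under 0.05), with 0 to 1 lower when a culture was left out. Monoamine genes gave 1 higher with a mean FPKM of at least 1, 3 under quantile normalization and 3 to 5 with a culture left out, the 3 arising without control replicate 2, control replicate 3 or butyrate replicate 2. The replicate block gave 4956 genes higher and 4015 lower and left SLC29A4 at 6.84 (SE 0.39). The deviations of same-numbered cultures from their group means had correlations of 0.0228, -0.00431 and 0.00177. No pairing was seen, which does not show that these cultures were handled separately. TPH2 lost its call without control replicate 2 or 3 or butyrate replicate 1 or 2 (1.01 to 1.52). FBXL18 lost it without any culture but butyrate replicate 2, and PAPOLB without any but control replicate 2. The cause of these changes was not tested. Without counts in the tables, levels under about 1 FPKM are imprecise.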

Other observations

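Among other genes with SLC names, the largest rises were in SLC17A7, a vesicular glutamate transporter, which had 0.407, 0.328 and 0.158 FPKM in control and 31.6, 33.1 and 27.9 after butyrate (log2 difference 6.34, limma adjusted p = 2e-07), and in SLC4A11, SLC16A3 and SLC30A3 (4.48, 4.28 and 4.14). SLC16A3, a lactate exporter, went from 1.05 ± 0.564 to 20.1 ± 0.856 FPKM (SD, n = 3 each). The largest falls were in SLC35B4 (-1.64), SLC17A9, a vesicular nucleotide transporter that went from 33.4 ± 3.53 to 11.3 ± 1.04 FPKM (-1.56, adjusted p = 3.3e-06), SLC15A1, a peptide transporter (-1.36), and SLC25A21 (-1.35). SLC43A3, a nucleobase transporter chosen after its values were seen, had 0.0731, 0.157 and 0.0761 FPKM in control and 4.19, 3.05 and 2.22 after butyrate (3.99, adjusted p = 1.2e-05).

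SUSD2 and ADORA2A, both among the 5 genes closest in profile to SLC29A4, lie 159 kb apart on chromosome 17. CAPN11, 25.5 kb from SLC29A1, differed by 4.02 on the log2 scale, while SLC29A1 differed by -0.42.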
